A study of Mus musculus with 6 samples.

Results

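The 9 genes described here include those of the aldehyde oxidases of the mouse (Aox1, Aox2, Aox3 and Aox4). The rest are Xdh and Suox, for the molybdenum enzymes xanthine dehydrogenase and sulfite oxidase, and the cofactor genes Mocs1, Mocs2 and Mocos. All 9 were found by symbol among the 24749 genes of the deposited table, and each had a row. Aox3 was chosen by its measured FPKM, for its low level in knockout against wild-type kidneys, and the others were added by family and function. The values of Aox3 in that comparison are therefore given as a description, with no test. RNA had been sequenced from whole kidneys dissected at stage E15.5 of development in mice of mixed strain. The 3 knockout libraries carried Foxd1cre with homozygous floxed alleles of Yap (Yapc/c) and Taz (Tazc/c, the gene Wwtr1). The 3 wild-type libraries were Cre negative. Cre acts in the Foxd1 lineage, the stroma of the kidney, while epithelium, endothelium and blood cells of the organ also contribute RNA. YAP and TAZ are the transcriptional co-activators of the Hippo pathway, and the study asked about their part in pericyte differentiation. No label ties a library to its own embryo or litter or says whether kidneys were pooled, so p-values measure no more than how these libraries scatter, and that scatter may be technical.

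Molybdenum becomes active in animal enzymes only when it is bound to a pterin, the molybdenum cofactor. MOCS1 makes the first pterin intermediate from GTP, molybdopterin synthase (both of its subunits are encoded by Mocs2) adds sulfur, and gephyrin inserts the metal. Sulfite oxidase uses the cofactor in this form in mitochondria, whereas xanthine dehydrogenase and the aldehyde oxidases need a further sulfuration by the product of Mocos. Xanthine dehydrogenase makes uric acid at the end of purine breakdown. Aldehyde oxidases act on a wide range of aldehydes and nitrogen heterocycles, among them retinaldehyde and many drugs, and in the mouse AOX1 and AOX3 are best known from the liver.

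The 4 aldehyde oxidase genes lie in tandem on the plus strand of chromosome 1, in the order Aox1, Aox3, Aox4 and Aox2 (GRCm38, positions 58029931 to 58380259). Aox3 itself spans 58113130 to 58200698 and starts 6.72 kb after the end of Aox1. The gaps behind Aox3 and behind Aox4 measure 9.70 and 9.73 kb. Each gene has 35 coding exons, and in each of the other 3 genes 32 of them have the same length as in Aox3. Coding sequence of Aox3 was 67.2% identical to that of Aox1, 68.4% to Aox2, 67.2% to Aox4 and 61.5% to Xdh over aligned bases. The second coding exon, 58 bases long in each gene, is printed to show how far the copies have diverged, which decides whether sequencing reads can tell them apart. It lies at chr1:58114871-58114928 in Aox3, chr1:58041436-58041493 in Aox1, chr1:58213022-58213079 in Aox4 and chr1:58281177-58281234 in Aox2 (plus strand, GENCODE M21 transcripts). Capitals in Aox1, Aox4 and Aox2 mark bases that differ from Aox3, and capitals in Aox3 mark bases that differ in any of the others.
Aox3: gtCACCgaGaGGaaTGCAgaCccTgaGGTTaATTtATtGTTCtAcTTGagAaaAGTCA
Aox1: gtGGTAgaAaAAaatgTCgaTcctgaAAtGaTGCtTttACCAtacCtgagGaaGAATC
Aox4: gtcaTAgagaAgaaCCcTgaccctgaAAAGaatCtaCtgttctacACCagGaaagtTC
Aox2: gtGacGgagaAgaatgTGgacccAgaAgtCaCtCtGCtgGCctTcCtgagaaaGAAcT
In this exon Aox1 differed from Aox3 at 28 bases, Aox2 at 20 and Aox4 at 18. The longest run of identical coding bases was 20 between Aox3 and Aox1, 20 between Aox3 and Aox2 and 22 between Aox3 and Aox4. Of the 7029 different words of 31 bases in the Aox3 transcripts, 0 occurred in another gene of the family and 27 (0.384%) in any other gene. Aox2 and Aox4 shared 16 such words. The only other gene within its span, the small nucleolar RNA model Gm24548 on the opposite strand, shared 0 exon bases with it.

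Aox3 was low in every knockout library. It measured 0.361, 0.208 and 0.321 FPKM (fragments per kilobase of transcript and sequencing depth, as the authors scaled them) in knockout kidneys, against 3.29, 2.97 and 2.72 FPKM in wild-type kidneys. The genotypes were far apart, and the highest knockout value lay well under the lowest wild-type value. Means were 0.297 ± 0.0796 FPKM in knockout and 2.99 ± 0.286 FPKM in wild-type kidneys (SD, n = 3 each), so knockout kidneys held 9.91% of the wild-type level. On the scale of log2(FPKM + 1) used for all fits, which compresses low values, the change was -1.62 (SE 0.10), and as a plain log2 ratio of means it was -3.34. At the approximated depth of 12700000 to 15400000 fragments per library these values stand for about 24, 12 and 23 fragments in knockout and about 193, 194 and 167 in wild-type kidneys. Only genes whose average across the 6 libraries was 0.5 FPKM or more were fitted, and Aox3 reached that through its wild-type level. In whole kidneys, fewer cells that express a gene and less RNA in each of them cannot be told apart.

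The neighbouring copies were scarce in both genotypes. Aox1 measured 0.271, 0.361 and 0.185 FPKM in knockout and 0.260, 0.343 and 0.314 FPKM in wild-type kidneys. Its groups overlapped, with means of 0.272 ± 0.0884 FPKM in knockout and 0.306 ± 0.0419 FPKM in wild-type kidneys (SD, n = 3 each). Aox2 measured 0.248, 0.157 and 0.169 FPKM in knockout and 0.0635, 0.128 and 0.196 FPKM in wild-type kidneys, again with overlap. Aox4 came to 0.0264, 0.0603 and 0.0249 FPKM in knockout libraries, against 0.0410 and 0.0145 FPKM in wild-type libraries 2 and 3 and a listed 0 in wild-type library 1. That is about 2, 4 and 2 fragments in knockout and 0, 3 and 1 in wild-type libraries, and 472 exon bases of Aox4 are shared with the antisense model Gm15759, so nothing can be read from its level. All 3 copies lay below 0.5 FPKM, and they were fitted only when the filter was dropped. In that fit the log2(FPKM + 1) change was -0.04 for Aox1 (95% CI -0.20 to 0.12, limma adjusted p = 0.83), 0.08 for Aox2 (95% CI -0.07 to 0.22, adjusted p = 0.629) and 0.03 for Aox4 (95% CI -0.07 to 0.12, adjusted p = 0.801). The scale compresses changes at such low levels, most of all for Aox4.

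**Figure D1:**
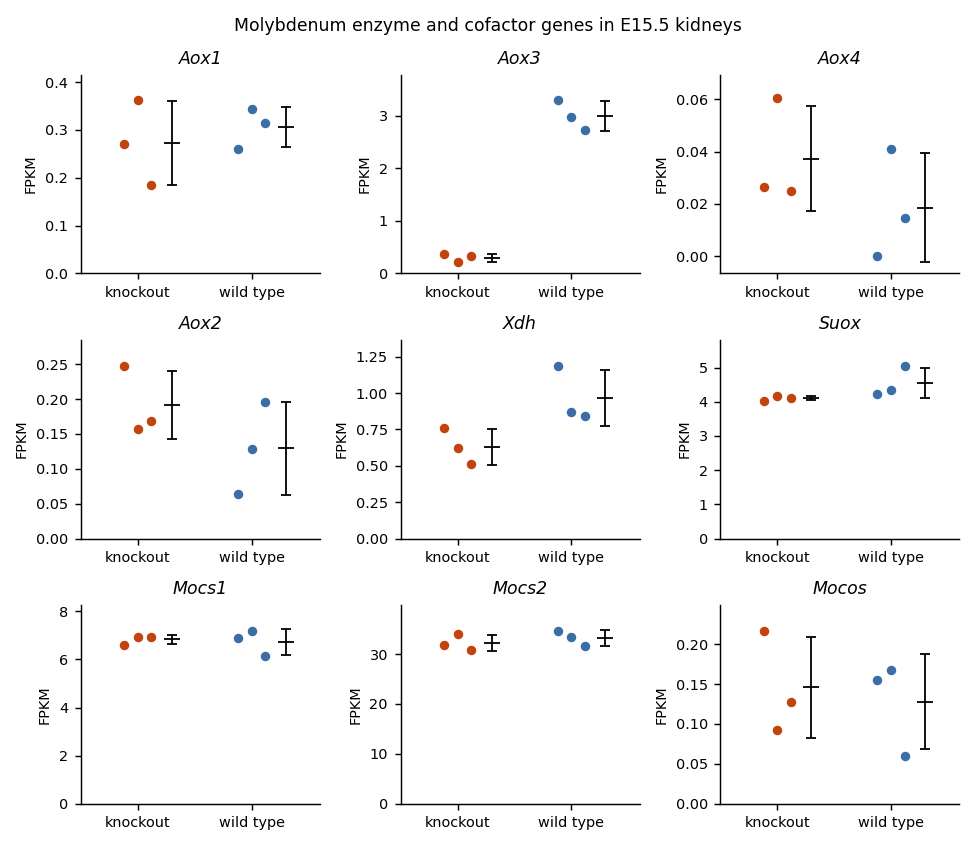
FPKM of the 9 genes in each library (vertical axis, a separate linear scale per panel), knockout on the left and wild type on the right. Points are libraries and the bars beside them are mean ± SD (n = 3); Aox3 is the panel with the widest gap, and in Aox4, Aox2, Aox1 and Mocos each point stands for at most 22 fragments.

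Aox3 made up most of the aldehyde oxidase RNA in wild-type kidneys and a smaller share in knockout kidneys. FPKM values are per length of transcript and can be added over the genes. The sum of the 4 genes was 0.907, 0.787 and 0.700 FPKM in knockout libraries and 3.62, 3.48 and 3.25 FPKM in wild-type libraries. Aox3 held 39.8%, 26.4% and 45.9% of that sum in knockout libraries and 91.0%, 85.3% and 83.8% in wild-type libraries. Without Aox3 the sums overlapped, at 0.501 ± 0.107 FPKM in knockout and 0.454 ± 0.113 FPKM in wild-type kidneys (SD, n = 3 each).

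**Figure D2:**
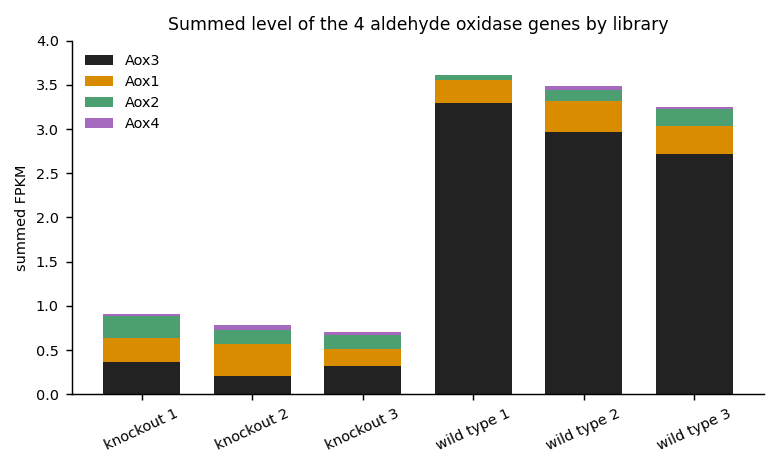
Summed FPKM of the 4 aldehyde oxidase genes (vertical axis, from 0) in each library, stacked by gene. The black part, Aox3, is 0.208 to 0.361 FPKM high in the knockout libraries on the left and 2.72 to 3.29 FPKM in the wild-type libraries on the right, while the coloured parts are of similar height in both.

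Xanthine dehydrogenase, the closest relative of the aldehyde oxidases outside the cluster, was also lower in knockout libraries, but the difference did not pass the test. Xdh (chromosome 17, 73883895 to 73950196, minus strand) measured 0.759, 0.624 and 0.511 FPKM in knockout and 1.19, 0.873 and 0.840 FPKM in wild-type kidneys. All knockout values lay below all wild-type values, as they did for 11.8% of the 16899 genes tested. Means were 0.631 ± 0.124 FPKM in knockout and 0.967 ± 0.193 FPKM in wild-type kidneys (SD, n = 3 each), or 65.2% of wild type. The log2 change of -0.27 (SE 0.12) had a 95% CI from -0.54 to 0.000621 and a limma adjusted p of 0.311, and the exact permutation p was 0.1, the smallest that 3 against 3 allows. Words of 31 bases shared with other genes made up 14.4% of the Xdh transcripts, more than for any other of the 9 genes.

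Sulfite oxidase did not pass the test either. Suox (chromosome 10, 128669894 to 128674073, minus strand) measured 4.04, 4.17 and 4.11 FPKM in knockout and 4.23, 4.35 and 5.05 FPKM in wild-type kidneys. The groups did not overlap, but the knockout values came close to those of wild-type libraries 1 and 2, and only wild-type library 3 stood above them by more than 0.5 FPKM. The log2 change of Suox was -0.12 (SE 0.09, 95% CI -0.32 to 0.09, limma adjusted p = 0.553, exact permutation p = 0.1).

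Genes that make and finish the cofactor gave similar values in both genotypes. Mocs2 (chromosome 13, 114818236 to 114832275, plus strand) had the highest level of the 9 genes, with 31.9, 34.0 and 30.8 FPKM in knockout and 34.7, 33.3 and 31.6 FPKM in wild-type kidneys. Mocs2 had a change of -0.04 on the log2 scale (SE 0.06, 95% CI -0.18 to 0.10, limma adjusted p = 0.766). Mocs1 (chromosome 17, 49428362 to 49455435, plus strand) measured 6.60, 6.95 and 6.95 FPKM in knockout and 6.88, 7.19 and 6.13 FPKM in wild-type kidneys. For Mocs1 the change was 0.02 (SE 0.08, 95% CI -0.17 to 0.21, limma adjusted p = 0.925). For both genes the groups overlapped, and the intervals leave room for changes of at most 0.21 on the log2 scale in either direction. Mocos (chromosome 18, 24653691 to 24701575, plus strand), the sulfurase that xanthine dehydrogenase and the aldehyde oxidases depend on, was near the limit of detection. It measured 0.217, 0.0927 and 0.128 FPKM in knockout and 0.156, 0.168 and 0.0593 FPKM in wild-type kidneys, between about 2 and 9 fragments a library. Without the filter its log2(FPKM + 1) change was 0.02 (95% CI -0.13 to 0.17, limma adjusted p = 0.894).

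The order of the levels differed between genotypes at a single step. In knockout kidneys it ran Mocs2, Mocs1, Suox, Xdh, Aox3, Aox1, Aox2, Mocos and Aox4, and in wild-type kidneys Mocs2, Mocs1, Suox, Aox3, Xdh, Aox1, Aox2, Mocos and Aox4. In knockout kidneys the ranges of Aox3 and Aox1, of Aox1 and Aox2, and of Aox2 and Mocos overlapped. In wild-type kidneys this held only for Aox2 and Mocos among neighbours in the order. Over all 16899 genes tested, 0.734% were called at a limma adjusted p under 0.05, and 0.604% were called lower. Of the 9 genes 5 were tested and 1 was called lower, which is Aox3, the gene chosen for its level in this comparison, so nothing is read from that count. Of the other 4 tested genes, Xdh and Suox had all knockout values below all wild-type values, against the 11.8% of all genes given above, and 0 had all above.

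The genes around the cluster were examined next. Within 500 kb of its ends 15 other genes had a row and 14 were tested, of which 0 were called by limma and 1 had an unadjusted p under 0.05, against 16.1% of all genes tested. Their levels in knockout kidneys lay between 83.8% and 105% of wild type, and their median log2 change was -0.03. Sgo2a, a protector of chromosome cohesion 4.0 kb before Aox1, averaged 16.2 FPKM in knockout and 16.5 FPKM in wild-type kidneys. Bzw1, a regulator of translation start 12.6 kb behind Aox2, averaged 163 FPKM in knockout and 166 FPKM in wild-type kidneys. The gene with the unadjusted p under 0.05 was Cflar, an inhibitor of caspase 8 activation, with 25.2 FPKM in knockout and 28.9 FPKM in wild-type kidneys (log2 change -0.19, adjusted p = 0.225). The neighbours named were chosen after their values were seen. The lowest of the 14 relative to wild type was Gm20257, at 4.81 ± 1.16 FPKM in knockout and 5.74 ± 0.417 FPKM in wild-type kidneys (SD, n = 3 each), with overlap.

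**Figure D3:**
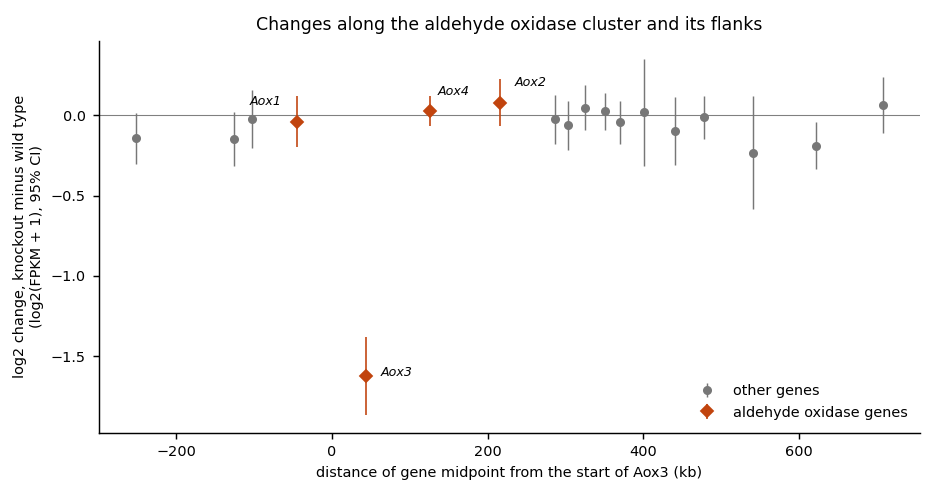
Log2 change, knockout minus wild type, on the log2(FPKM + 1) scale with its 95% CI (vertical axis) against the distance of each gene's midpoint from the start of Aox3 in kb (horizontal axis). Diamonds are the aldehyde oxidase genes, with Aox1, Aox4 and Aox2 from the fit without a filter, and circles are the 14 tested neighbours; Aox3 lies at -1.62, while low levels such as those of Aox4 hold a point near 0 on this scale whatever their ratio.

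The starts of Aox3 and Aox1 are shown because the pair lie side by side in the cluster and differed in level in wild-type kidneys. Promoter windows of 300 bases, from 250 bases before to 50 after the start, were taken from RefSeq on GRCm38.p6, where 7 of the 9 genes matched; Xdh and Mocos did not. The windows are chr1:58112886-58113185 for Aox3 and chr1:58029719-58030018 for Aox1, both on the plus strand. Capitals mark a match to a binding motif of AP-1, TGANTCA, which reads the same on both strands. The core motif of the TEAD factors, through which YAP and TAZ bind DNA, was searched as GGAATG on both strands.
Aox3: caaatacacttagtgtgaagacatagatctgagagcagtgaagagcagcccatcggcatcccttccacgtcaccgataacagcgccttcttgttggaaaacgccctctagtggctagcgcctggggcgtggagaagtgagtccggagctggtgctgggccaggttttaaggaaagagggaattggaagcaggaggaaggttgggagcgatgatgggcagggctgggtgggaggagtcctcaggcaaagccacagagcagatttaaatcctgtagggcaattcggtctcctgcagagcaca
Aox1: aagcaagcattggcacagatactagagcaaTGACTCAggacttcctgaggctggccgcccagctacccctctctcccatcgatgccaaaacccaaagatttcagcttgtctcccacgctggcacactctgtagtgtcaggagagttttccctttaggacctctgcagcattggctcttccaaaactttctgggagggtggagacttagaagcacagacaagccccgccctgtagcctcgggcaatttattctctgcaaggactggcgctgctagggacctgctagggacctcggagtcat
The letters GGAATG were in 0 of the 7 windows, and 14.7% of all 32851 promoter windows of this length hold them. TGANTCA was found once each in Aox1, Aox4 and Mocs2, and in 7.81% of all windows. Aox3 had neither. These are matches of letters in a short window and say nothing of binding there or farther away.

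Other genes of the pathways around these enzymes were taken from 6 lists. Of 76 genes tested 1 was called, a share near the 0.734% of all genes tested, and their median log2 change was 0.03, against -0.002 over all genes tested. The gene called was Aldh1a3, an aldehyde dehydrogenase that makes retinoic acid from retinaldehyde, which rose in knockout kidneys. It measured 28.6, 30.1 and 28.4 FPKM in knockout and 19.4, 19.5 and 18.2 FPKM in wild-type kidneys, with no overlap between the groups. The knockout level was 152% of wild type, with a change of 0.58 on the log2 scale (SE 0.06, adjusted p = 0.0048 by limma), and the call was lost with the replicate number as a block (adjusted p = 0.0559).

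Aldehyde dehydrogenases oxidise aldehydes with NAD or NADP, without molybdenum. Of 19 tested, 1 was called higher (0.130% of all genes tested were) and 0 lower. At an unadjusted p under 0.05, which 16.1% of all genes tested reached in either direction, 6 were higher and 0 lower. Of the 19, 14 lay above 0 (13 with libraries rescaled to equal sums), against 8382 of all 16899 genes, and their median log2 change was 0.14. In 9 of them all knockout values lay above all wild-type values, as for 12.5% of all genes tested. Aldh16a1, an unusual member of the family, measured 20.6, 20.9 and 20.7 FPKM in knockout and 16.1, 17.9 and 17.9 FPKM in wild-type kidneys (log2 change 0.25, adjusted p = 0.136), and shares 149 exon bases with Pih1d1 on the opposite strand.

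Of 14 tested genes of vitamin B6 and retinol metabolism 0 were called by limma, 3 were lower and 2 higher at an unadjusted p under 0.05 (16.1% of all genes in either direction), and the median log2 change was -0.01. Crabp1, a cytoplasmic carrier of retinoic acid, had 10.8, 13.8 and 12.2 FPKM in knockout and 20.9, 26.5 and 35.3 FPKM in wild-type kidneys. The groups did not overlap and the wild-type values were widely spread, with library 3 highest. The change of Crabp1 was -1.08 on the log2 scale (limma adjusted p = 0.0968), and without wild-type library 1 or 3 it was called (adjusted p = 0.0421 and 0.0426). Stra6, the receptor that takes up retinol, averaged 8.31 ± 0.377 FPKM in knockout and 6.01 ± 0.962 FPKM in wild-type kidneys (SD, n = 3 each; limma adjusted p = 0.153).

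Sulfite, the substrate of Suox, comes from the breakdown of cysteine. Of 14 tested genes of cysteine and sulfite metabolism 0 were called by limma, 2 were lower and 2 higher at an unadjusted p under 0.05 (against 16.1% of all genes), and the median log2 change was 0.04. Cth, which makes cysteine from cystathionine, measured 9.45, 11.0 and 10.8 FPKM in knockout and 14.1, 18.7 and 13.5 FPKM in wild-type kidneys (log2 change -0.52, adjusted p = 0.131). Mpst, a mitochondrial and cytosolic sulfurtransferase, averaged 20.8 ± 0.583 FPKM in knockout and 17.9 ± 0.517 FPKM in wild-type kidneys (SD, n = 3 each; limma adjusted p = 0.162).

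Xanthine dehydrogenase takes its substrate from purine breakdown. Of 12 tested genes of purine breakdown and salvage 0 were called by limma. At an unadjusted p under 0.05 (16.1% of all genes tested in either direction) 1 was higher, the AMP deaminase gene Ampd2 (log2 change 0.30, limma adjusted p = 0.178). Hprt, which returns hypoxanthine to the nucleotide pool, was at 92.8% of wild type (limma adjusted p = 0.449), and the median of the list was -0.01. The pair Uox and Urad, whose products break uric acid down further, were scarcely present, Urad being listed at 0 in all 6 libraries.

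Xanthine dehydrogenase, the aldehyde oxidases and MOCS1 carry iron-sulfur clusters. Of 14 tested genes of iron-sulfur assembly and sulfur supply 0 were called by limma, and the median log2 change was 0.02. At an unadjusted p under 0.05, 1 was lower and 1 higher, a share near the 16.1% of all genes tested in either direction. The lower one was the assembly factor Isca1, at 31.8 ± 1.99 FPKM in knockout and 35.2 ± 1.08 FPKM in wild-type kidneys (SD, n = 3 each; log2 change -0.14, limma adjusted p = 0.304). The remaining genes of cofactor use were Mocs3, which supplies sulfur to molybdopterin synthase, Gphn, encoding gephyrin, and Marc1 and Marc2, encoding the mitochondrial amidoxime-reducing enzymes. Of these 3 were tested and 0 called by limma, with 0 at an unadjusted p under 0.05 (16.1% of all genes tested). Mocs3 averaged 4.51 ± 0.240 FPKM in knockout and 3.95 ± 0.471 FPKM in wild-type kidneys, and Gphn 11.0 ± 0.216 FPKM in knockout and 11.8 ± 0.388 FPKM in wild-type kidneys (SD, n = 3 each). Marc2 was the abundant mitochondrial enzyme gene, at 28.7 FPKM in knockout and 29.3 FPKM in wild-type kidneys. Marc1 was listed at 0 in knockout libraries 1 and 3 and at 0.0368 FPKM in knockout library 2, against 0.0333 to 0.0370 FPKM in wild-type libraries.

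**Figure D4:**
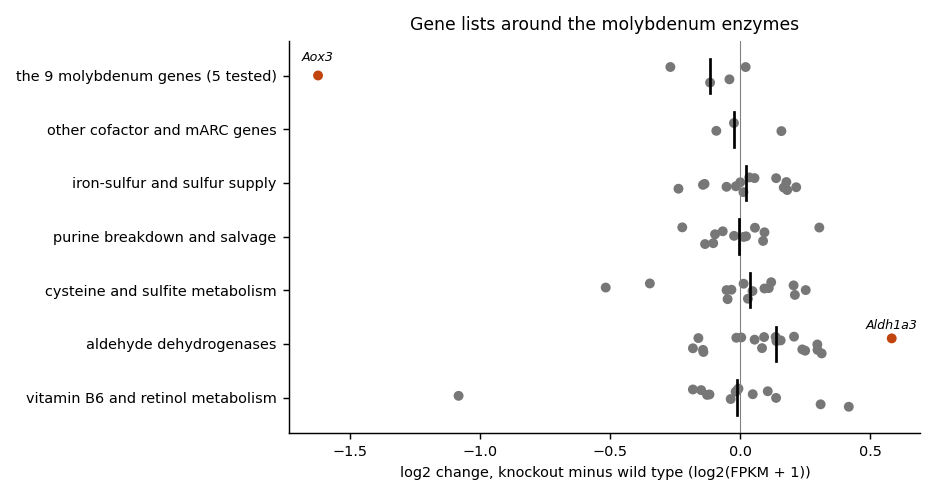
Log2 change, knockout minus wild type, on the log2(FPKM + 1) scale (horizontal axis) for each tested gene of the 9 and of the 6 lists (rows). Points are genes, black bars are list medians, and coloured, named points are Aldh1a3, called by limma, and Aox3, which was chosen by its values in this comparison and is shown as a description.

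Over the 6 libraries the genes with the highest Pearson r to Aox3 in log2(FPKM + 1) were Reln, Clca3a1, Cald1, Mdfic, Kcnb2 and Npr3. Their r lay between 0.996 and 0.997, and 221 of 16898 genes reached 0.95, since any gene with a clean gap between genotypes scores high over so few libraries that share that gap. Cald1 encodes the actin-binding protein caldesmon and averaged 52.8 ± 0.944 FPKM in knockout and 82.3 ± 2.07 FPKM in wild-type kidneys (SD, n = 3 each). Npr3, the clearance receptor of natriuretic peptides, averaged 8.05 ± 0.450 FPKM in knockout and 13.7 ± 0.358 FPKM in wild-type kidneys. The gene Kcnb2, for a subunit of voltage-gated potassium channels, averaged 0.803 FPKM in knockout and 1.61 FPKM in wild-type kidneys. Reln encodes the secreted protein reelin, Clca3a1 a protein of the chloride channel regulator family, and Mdfic a protein with a MyoD family inhibitor domain; they stood at 29.3%, 24.6% and 60.3% of wild type. Aox3 lay lowest of these 7 relative to wild type, but it was chosen for its low level, so nothing is read from that place. Reln, Clca3a1 and Npr3 share exon bases with a gene model on the opposite strand.

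**Figure D5:**
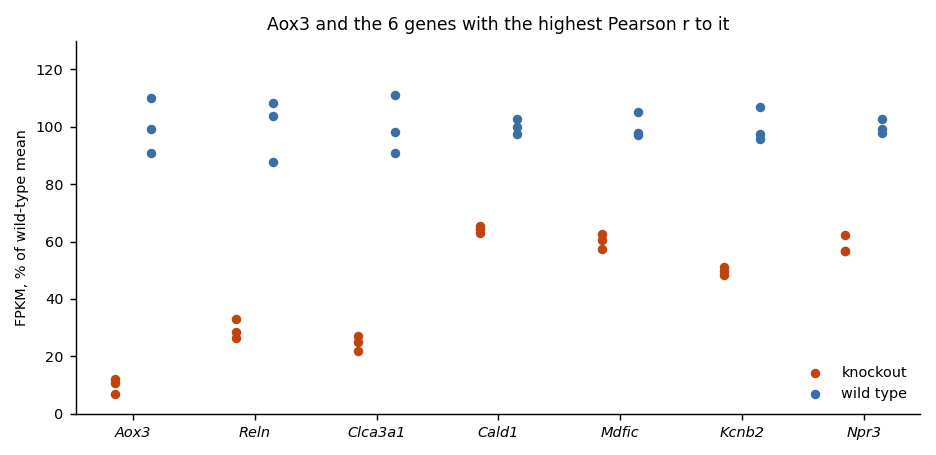
FPKM as a percentage of the wild-type mean (vertical axis, linear) in each library for Aox3 and the 6 genes of highest Pearson r to it, knockout points left of wild-type points. Knockout means are 9.91% for Aox3 and between 24.6% (Clca3a1) and 64.2% (Cald1) for the others.

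Facts of the libraries that touch these values are few. Wwtr1 averaged 12.9 ± 0.635 FPKM in knockout and 18.8 ± 1.26 FPKM in wild-type kidneys (limma adjusted p = 0.0235). Yap1 averaged 45.4 ± 2.94 FPKM in knockout and 51.0 ± 4.95 FPKM in wild-type kidneys (adjusted p = 0.378; SD, n = 3 each), with overlap. Foxd1, also among the cortical stroma markers below, averaged 4.50 ± 0.617 FPKM in knockout and 7.64 ± 1.31 FPKM in wild-type kidneys (SD, n = 3 each). All its knockout values lay below all wild-type values, as for 11.8% of all genes tested, and it was not called (log2 change -0.65, limma adjusted p = 0.0886). Its part in the level of Aox3 was not tested. The 8 markers of smooth muscle and pericytes summed to 100.03 to 110 FPKM in knockout and 140 to 151 FPKM in wild-type libraries. Of these 2 were called lower, and 5 were lower and 0 higher at an unadjusted p under 0.05. For this and the marker counts below, the shares of all genes tested were 0.604% called lower and 0.130% called higher. An unadjusted p under 0.05 was reached by 16.1% in either direction. The 9 markers of cortical stroma summed to 288 to 299 FPKM in knockout and 325 to 384 FPKM in wild-type libraries. Of these 1 was called lower, and 6 were lower and 1 higher at an unadjusted p under 0.05. The higher one was Aldh1a2, the most abundant of the list, at 108 FPKM in knockout and 96.7 FPKM in wild-type kidneys. Dcn, among the lower ones, averaged 29.3 FPKM in knockout and 61.3 FPKM in wild-type kidneys and made up much of the gap between the sums. The 7 macrophage markers summed to 34.7 to 36.5 FPKM in knockout and 37.7 to 40.0 FPKM in wild-type libraries, with 0 called and 0 at an unadjusted p under 0.05. All 3 sums were lower in knockout libraries without overlap, the macrophage sum only slightly, and their part in the level of Aox3 was not tested. Sums of the 8 genes listed for medullary stroma overlapped, at 419 to 448 FPKM in knockout and 439 to 501 FPKM in wild-type libraries. Most of each sum was Cdkn1c, which averaged 315 FPKM in knockout and 326 FPKM in wild-type kidneys. Acta2, also on the smooth muscle list, was called lower and Wnt4 higher. At an unadjusted p under 0.05, 3 were lower (Acta2, Penk and Tnc) and 2 higher (Wnt4 and Wnt7b). The 8 liver markers, of a tissue where Aox3 is known to be expressed, summed to 32.3 to 33.7 FPKM in knockout and 22.9 to 41.4 FPKM in wild-type libraries, with overlap. Of these 6 were tested, 0 were called by limma, 1 was higher at an unadjusted p under 0.05, and 0 of the 8 were at 0 in every library. The part of such cells in the level of Aox3 was not tested. The 8 endothelial markers summed to 237 to 241 FPKM in knockout and 225 to 232 FPKM in wild-type libraries; 0 were called by limma, with 1 lower and 3 higher at an unadjusted p under 0.05. Wild-type library 3 stood apart, with 81.5 FPKM over 8 proximal tubule markers against 118 to 140 FPKM in knockout libraries and 150 and 185 FPKM in the other wild-type libraries. Without it Aox3 was at 9.48%, Xdh at 61.2% and Suox at 95.7% of wild type.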

How the data were processed

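The authors deposited FPKM values for 24749 Ensembl genes, and per the submitters' processing notes reads were handled with bcl2fastq 2.17.1.14 and Salmon on GRCm38 (mm10). No version of Salmon, annotation release or filter is named in the sources used here. Each library's values had the same median ratio, 0.0038 on the log2 scale, to a reference formed of the geometric means over libraries. Genes were named and placed with GENCODE M21 (24510 matched). Depth was approximated from the lowest step of FPKM times length on genes with 1 transcript of at least 2000 bases. Fragments per gene were approximated from the full length of its transcript with the longest coding sequence. The 16899 genes averaging 0.5 FPKM or more were fitted as log2(FPKM + 1) with limma 3.58.1 in R 4.3.3, genotype as the only term, trend and robust moderation, and Benjamini-Hochberg adjustment over all genes tested. Changes are knockout minus wild type. The procedure was tested on simulated data. Exact permutation tests were two-sided over 20 assignments. Coding sequences were aligned with Biopython 1.88.

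The 9 genes and the lists were chosen with earlier results of these data known. Named genes are the 9, the called members of each list (at most 4, or the 2 of smallest p), called neighbours within 500 kb, and the 6 genes most like Aox3. Of the listed genes, Pnp and Pdxp were not matched by symbol, and 1 gene that the rule names is not reported here. Alternatives were other pseudocounts, filters and scalings, no robust moderation, the replicate number as a block, and leaving out each library.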

Additional observations from a re-analysis of the deposited data

How the results depend on the processing

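The replicate numbers of the labels did not pair the libraries. Correlations of the deviations of same-numbered libraries were 0.02, -0.04 and 0.05, and not every library correlated best with its own number. With the replicate number as a block 32 genes were called in place of 124, and list genes called fell to 0. Leaving out 1 library gave 52 to 147 genes called and 1 to 2 list genes, the second being Crabp1. In those fits of fewer samples the gene count moved by over 1.5 times when wild-type library 2 was dropped (52) and when any knockout library was (66, 57 and 58). The value of Aox3, given as a description, lay between -2.98 (pseudocount 0.1) and -1.57 (leaving out a library) on the log2 scale. Mocs1 ranged from -0.0368 (wild-type library 3 left out, a change of sign) to 0.063 (wild-type library 2 left out) and was not called in any fit. Xdh, Suox and Mocs2 kept their sign and were not called in any fit (lowest adjusted p = 0.235, 0.512 and 0.565). Neighbours called were 0 throughout. With a pseudocount of 0.1 the changes of the low genes moved to -0.15 for Aox1, 0.37 for Aox2, 0.22 for Aox4 and 0.12 for Mocos. These shifts exceeded the spread between libraries on the log2(FPKM + 1) scale, but a smaller pseudocount widens that spread too. They therefore do not show a change beyond the scatter of the libraries. Depth limits these 4 genes, which rest on about 0 to 22 fragments a library.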
